A study of Mus musculus with 6 samples.

Results

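The genes of respiratory complex I are described here in hearts of mouse embryos that lacked the pyruvate kinase isoform PKM1. The 44 members are all genes of the deposited count table whose symbol starts with Nduf, pseudogene names left out, of 13809 genes in the table. They were chosen by name and not by any measured value. They comprised 16 genes of the matrix arm, 18 of the membrane arm, *Ndufab1*, which sits in both arms, 7 assembly factors (Ndufaf), and *Ndufa4* and *Ndufa4l2*, which carry the name but are not counted as complex I subunits today. *Ndufs5*, *Ndufb1* and the subunits encoded by mitochondrial DNA were not analysed here.

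Complex I is the NADH dehydrogenase of the inner mitochondrial membrane. Its matrix arm takes electrons from NADH and passes them along iron-sulfur clusters to ubiquinone, and its membrane arm pumps protons. A conserved core does the chemistry, the supernumerary subunits surround and stabilise it, and the assembly factors help to build it and are absent from the finished enzyme. Heart muscle is rich in this enzyme, and its use of oxidative metabolism grows around birth.

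Total RNA from 3 WT and 3 KO heart samples (ventricular tissue by the study) was sequenced at embryonic day (E) 18.5, after removal of ribosomal RNA. Whether each sample came from a single heart is not stated. KO embryos were homozygous for a small CRISPR/Cas9 deletion in the exon of *Pkm* that only the *Pkm1* transcript uses. The deletion is therefore present in all cells of the embryo, and not in cardiomyocytes alone. The line was made in BDF1 zygotes, from C57BL/6J and DBA/2 parents, and the controls were WT embryos. Neither group received any treatment. The libraries of each genotype are lettered a, b and c, since the table's columns have no replicate number in their names, and whether the sequenced hearts came from shared litters is not stated, although the study's controls elsewhere were littermates.

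Levels are given as CPM, the count of a gene scaled to a fixed library size with edgeR's TMM factors. Library totals ranged from 15567624 to 19875546 counts, and the members took 0.551% to 0.575% of them. *Pkm*, read over both of its isoforms, fell from 1318 ± 41.1 CPM in the WT libraries to 542 ± 10.1 CPM in the KO libraries (SD, n = 3), with a log2 fold change of -1.28. The groups also differed in sex-linked transcripts. *Ddx3y*, on the Y chromosome, had 93.5 ± 6.45 CPM in the WT libraries and 0 counts in every KO library. *Xist*, which female cells make, had 5.26 ± 0.50 CPM in the WT libraries against 2285 ± 47.6 CPM in the KO libraries. Sex and genotype therefore cannot be told apart in any result below. Of the 5 cardiomyocyte markers, 2 were lower (*Myh6*, *Tnnt2*) and 2 were higher in KO (*Myh7*, *Actc1*). Their summed level was 46339 to 48997 CPM in WT and 43379 to 44171 CPM in KO. The mean of *Myh6* alone went from 13979 CPM in WT to 10191 CPM in KO. Of the 6 atrial markers, 3 were higher (*Myl4*, *Myl7*, *Nppa*), with sums of 595 to 601 CPM in WT and 1006 to 1030 CPM in KO. The other atrial markers, *Nr2f1*, *Nr2f2* and *Stard10*, had low levels and did not pass edgeR's threshold. Of the 3 ventricular markers, 1 was lower and 1 higher (5127 to 5736 CPM in WT, 4667 to 4926 CPM in KO). Endothelial markers were lower in 3 of 4 cases (935 to 944 CPM in WT, 867 to 882 CPM in KO), and epicardial markers were higher in 2 of 4 (61.4 to 64.6 CPM in WT, 73.2 to 79.5 CPM in KO). Of the 3 smooth muscle markers 1 was lower (595 to 638 CPM in WT, 607 to 619 CPM in KO), and of the 2 erythroid markers 1 was higher (27.2 to 28.0 CPM in WT, 31.0 to 37.5 CPM in KO). None of the 4 fibroblast markers (1815 to 1833 CPM in WT, 1754 to 1805 CPM in KO) and none of the 4 immune markers (18.5 to 21.1 CPM in WT, 19.2 to 24.2 CPM in KO) passed edgeR's threshold, and of these 8 genes *Col1a2* alone had an unadjusted p under 0.05. No marker was at 0 in any library. The part of these lists in the results below was not tested. In bulk tissue, fewer cells of a type and less RNA per cell cannot be told apart.

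Complex I transcripts differed little between the genotypes. All 44 members passed the filter on low counts. Of these, 9 were lower and 1 was higher in KO at an adjusted p under 0.05 (edgeR's quasi-likelihood test, Benjamini-Hochberg adjustment over 13804 genes), or 22.7% of the members beside 30.3% of all genes tested. Among all genes, 15.7% were lower and 14.6% higher. The 9 lower members were *Ndufb3*, *Ndufa5*, *Ndufs6*, *Ndufb9*, *Ndufa12*, *Ndufb4*, *Ndufv1*, *Ndufb7* and *Ndufb10*, and the higher one was *Ndufc2*. None reached a 1.5-fold change, while 6.19% of all genes did so with an adjusted p under 0.05. The log2 fold changes of the members ranged from -0.28 to 0.19 with a median of -0.033, beside 0.0017 over all genes, and 32 were below zero. With KO c left out, edgeR called 4 members lower and none higher (2 were higher at an unadjusted p under 0.05), and 23.3% of all genes were called. When library totals alone set the scale, 7 members were lower and 3 higher, and the share of lower calls among all called genes went from 51.9% to 34.4%.

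The summed level of all members was 5635, 5760 and 5896 CPM in WT and 5593, 5580 and 5413 CPM in KO. All 3 KO libraries lay below all 3 WT libraries, by a margin smaller than the range within either group. The sum over all genes tested was also lower in every KO library (983091 to 984341 CPM) than in any WT library (1011230 to 1024780 CPM). As a share of raw library totals, the members overlapped between the groups, at 0.557% to 0.575% in WT and 0.551% to 0.568% in KO. For single members the groups did not overlap in 12 of 44 cases, 9 of them lower in KO, while this was so for 42.4% of all genes tested. Of all genes, 21.4% were without overlap and lower in KO, and 21% were without overlap and higher. WT c held the highest level of the 6 libraries in 23 members, against 22% of all genes.

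**Figure D1:**
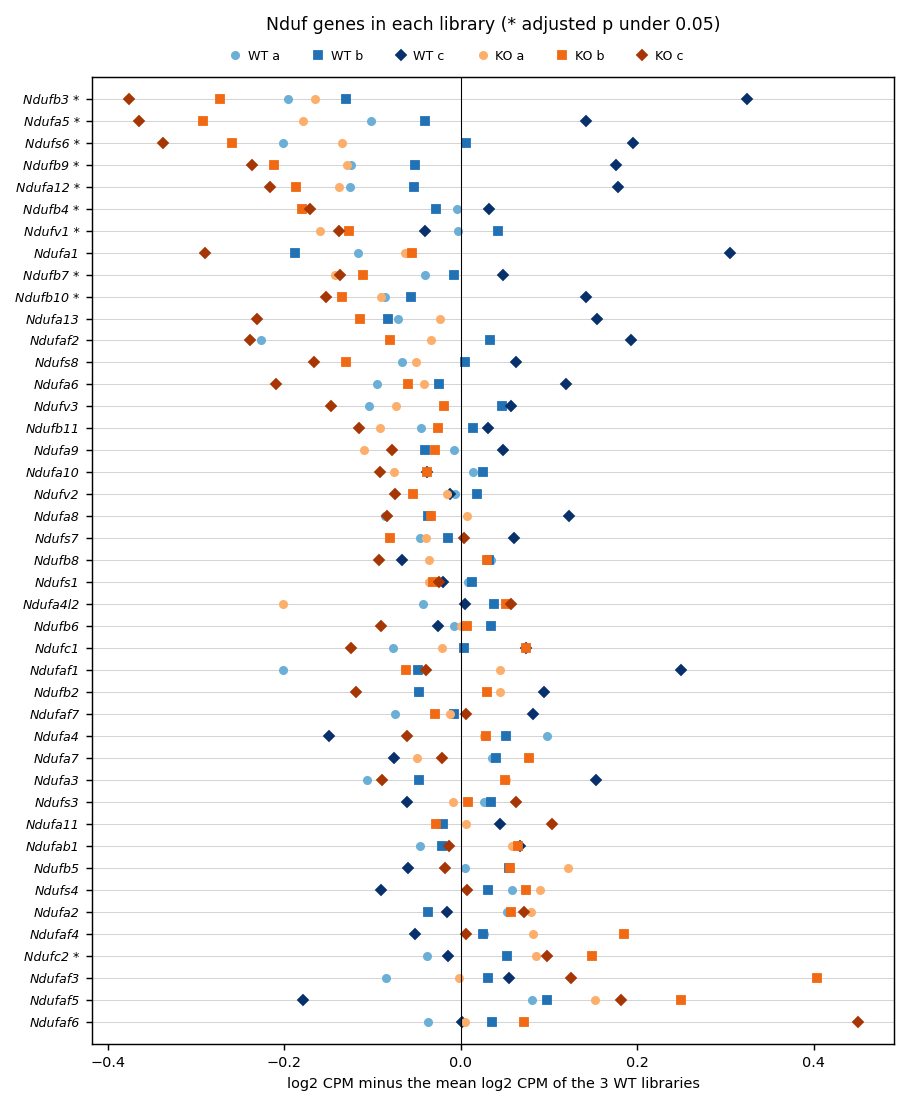
Level of 43 of the 44 members in each library, on the log2 CPM scale, relative to the mean of the 3 WT libraries (circles, squares and diamonds are libraries a, b and c, with WT in blue and KO in orange). WT c, the dark blue diamond, lies to the far right of the other WT libraries in many of the rows near the top, and it is the highest of the 6 libraries in 23 members.

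*Ndufa5*, *Ndufb4* and *Ndufv1* were the 3 members lower in KO under each of the 20 other ways of processing that were tried. *Ndufa5* encodes a supernumerary subunit of the matrix arm. Its level was 121, 126 and 143 CPM in WT and 115, 106 and 101 CPM in KO. Every KO library lay below every WT library, with WT c the highest. The log2 fold change was -0.28 ± 0.052 (SE, adjusted p = 1.76e-04), so the level fell by 17.5%, with a 95% confidence interval from -23.4% to -11.2%. None of the 50-base words of its transcript occurs in another annotated gene.

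*Ndufv1* encodes the core subunit that binds NADH and holds the flavin that first accepts its electrons. Its level was 317, 327 and 308 CPM in WT and 284, 290 and 288 CPM in KO. The groups did not overlap, and WT c was here the lowest of the WT libraries. The level fell by 9.39% (log2 fold change -0.14 ± 0.031, adjusted p = 9.44e-04), and it was the only core subunit that passed the threshold. Without WT c the log2 fold change was -0.16.

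*Ndufb4*, a supernumerary subunit at the far end of the membrane arm, was at 79.3, 78.0 and 81.3 CPM in WT. In KO it was at 70.2, 70.2 and 70.7 CPM. Both groups were tight, and they were separated by more than the range of either. KO differed from WT by a log2 fold change of -0.18 ± 0.044 (adjusted p = 0.00324), and without WT c it was -0.16. Of the 50-base words in its transcript, 37% also occur in *Ndufb4c* or in either of a pair of predicted genes, so part of its count depends on how the authors' counting treated shared reads.

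The windows around the starts of these 3 genes are shown, because their calls held in every setting. They are from RefSeq on GRCm38.p6, run from 250 bases before to 50 bases after an annotated start, and are written 5′ to 3′ on the strand of the gene. Capitals mark the motifs searched on both strands, TGCGCA (NRF1 half-site), CCAAT (NFY, read as ATTGG on the other strand) and AAGGTCA (ERR). *Ndufa5* has another annotated start, whose window overlaps the one shown and holds the same TGCGCA.
*Ndufa5* promoter, chr6:24527477-24527776, - strand: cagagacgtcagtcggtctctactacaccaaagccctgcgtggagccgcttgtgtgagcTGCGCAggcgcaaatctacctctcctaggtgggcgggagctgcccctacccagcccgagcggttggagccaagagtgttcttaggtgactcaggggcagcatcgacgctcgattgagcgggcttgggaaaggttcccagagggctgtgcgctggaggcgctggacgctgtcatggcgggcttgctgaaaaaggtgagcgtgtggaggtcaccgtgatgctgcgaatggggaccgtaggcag
*Ndufb4* promoter, chr16:37654319-37654618, - strand: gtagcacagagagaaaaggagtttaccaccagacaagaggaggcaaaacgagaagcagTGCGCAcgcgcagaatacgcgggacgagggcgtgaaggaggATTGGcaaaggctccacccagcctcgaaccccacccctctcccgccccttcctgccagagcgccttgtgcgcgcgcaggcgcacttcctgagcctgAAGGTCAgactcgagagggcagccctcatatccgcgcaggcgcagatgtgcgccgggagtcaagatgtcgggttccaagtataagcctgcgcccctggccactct
*Ndufv1* promoter, chr19:4012706-4013005, - strand: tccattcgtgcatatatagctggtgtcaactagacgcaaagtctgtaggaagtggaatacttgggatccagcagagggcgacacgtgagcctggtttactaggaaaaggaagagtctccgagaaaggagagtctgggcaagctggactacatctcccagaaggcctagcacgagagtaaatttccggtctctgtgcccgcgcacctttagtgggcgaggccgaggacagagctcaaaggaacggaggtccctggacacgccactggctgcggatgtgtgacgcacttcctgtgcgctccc

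The window of *Ndufv1* held none of the motifs, and that of *Ndufb4* held 3 of them. RefSeq windows were found for 38 of the 44 members, 40 windows in all. TGCGCA was in 27.5% of these, in 12.9% of the windows of all genes in the table and in 7.76% of all 32851 windows. CCAAT, the letters that NFY binds, was in 32.5% of member windows, 37.1% of those of genes in the table and 37.4% of all windows. AAGATGG (YY1) was in 17.5% of member windows, 6.74% of those of genes in the table and 6.34% of all windows. For CCGGAAG (ETS) these shares were 12.5%, 16.2% and 8.86%, and for AAGGTCA they were 5%, 3.21% and 4.72%. Counted by gene, since the overlapping *Ndufa5* windows hold 1 and the same TGCGCA, these letters stood near the starts of 4 of 8 members lower in KO and 6 of 30 other members, and CCAAT near those of 3 and 10. These shares describe letters and not binding. *Ndufa2*, *Ndufa4l2*, *Ndufaf6*, *Ndufb9* and *Ndufs1* were among those not matched.

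In the matrix arm, 4 of 16 genes were lower in KO and none was higher (25% called, beside 30.3% of all genes tested). The median log2 fold change was -0.060. Beside *Ndufa5* and *Ndufv1* the lower genes were *Ndufs6* and *Ndufa12*, both supernumerary subunits near the site of NADH oxidation. *Ndufs6* was at 113, 130 and 149 CPM in WT and 118, 108 and 103 CPM in KO. The groups overlapped, since WT a lay below KO a, and the WT libraries were spread more widely than the KO libraries. The log2 fold change was -0.25 ± 0.063 (adjusted p = 0.00368), and -0.15 without WT c (adjusted p = 0.00441). Its transcript shares 14.6% of its 50-base words with *Ndufs6b*.

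*Ndufa12*, which takes the place of the assembly factor Ndufaf2 late in assembly, was at 133, 140 and 164 CPM in WT. In KO it was at 132, 128 and 125 CPM. The groups did not overlap, but WT a and KO a were nearly level and WT c stood apart. Its log2 fold change was -0.18 ± 0.052 (adjusted p = 0.00851), and -0.094 without WT c (adjusted p = 0.0411). The transcript of *Ndufa12* shares 26.2% of its 50-base words with a predicted gene, *Gm15920*.

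The core subunits encoded in the nucleus all belong to the matrix arm. *Ndufs1*, which holds several of the iron-sulfur clusters, was at 435, 436 and 426 CPM in WT and 422, 423 and 425 CPM in KO. The groups did not overlap, by a narrow margin, and the 95% interval of its log2 fold change ran from -0.088 to 0.026 (adjusted p = 0.424).

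*Ndufs8*, which carries iron-sulfur clusters on the way to ubiquinone, lay just outside the threshold (log2 fold change -0.11 ± 0.044, adjusted p = 0.0501). Its level was 98.5, 103 and 108 CPM in WT and 99.6, 94.3 and 91.9 CPM in KO, with KO a above WT a. *Ndufv2*, an iron-sulfur subunit beside *Ndufv1*, was at 250, 254 and 249 CPM in WT and 248, 242 and 238 CPM in KO (log2 fold change -0.048, adjusted p = 0.267). Its groups did not overlap, as was also so for *Ndufs1*, although neither gene passed the threshold.

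*Ndufs7* and *Ndufs3* belong to the core as well. *Ndufs7*, which holds the last iron-sulfur cluster before ubiquinone, was at 105, 107 and 113 CPM in WT and 105, 102 and 108 CPM in KO. *Ndufs3* was at 126, 126 and 118 CPM in WT and 123, 124 and 129 CPM in KO. The groups overlapped for both genes, with log2 fold changes of -0.037 and 0.019. Among the 28 supernumerary subunits of the arms, *Ndufab1* included, 8 were lower and 1 was higher, with a median of -0.071. The share called was 32.1%, beside 30.3% of all genes tested.

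The rest of the matrix arm did not pass the threshold. *Ndufa6* (log2 fold change -0.10), *Ndufv3* (-0.081), *Ndufa9* (-0.072) and *Ndufa7* (-0.0016) lay below zero. *Ndufs4* (0.054) and *Ndufa2* (0.069) lay above it. *Ndufs4*, a subunit known for its mutations in mitochondrial encephalopathy, had a 95% interval that ended at 0.15.

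**Figure D2:**
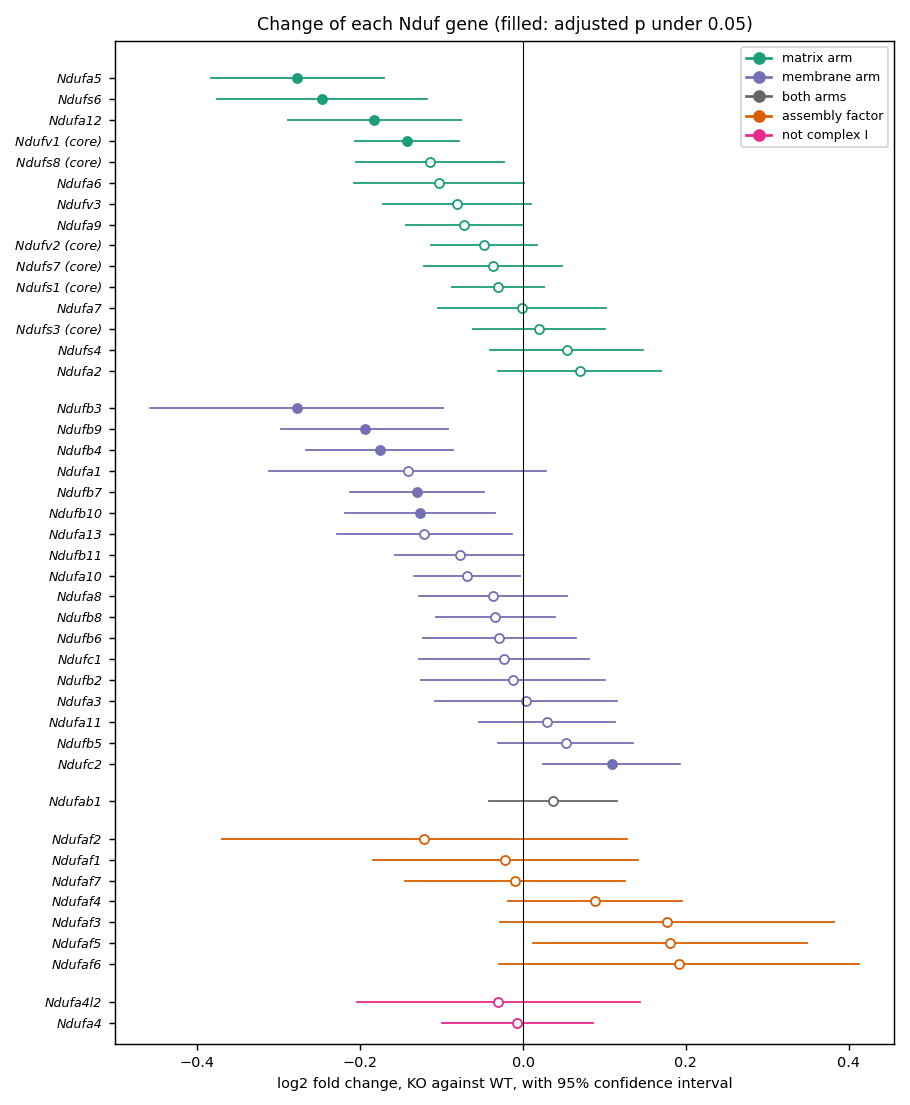
Log2 fold change of 43 of the 44 members, KO against WT, each with its 95% confidence interval, grouped and coloured by place in the complex (filled circles have an adjusted p under 0.05). Filled circles lie to the left of zero in both arms, with *Ndufc2* the only one to the right, and there are none among the 7 assembly factors.

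In the membrane arm, 5 of 18 genes were lower and 1 was higher (33.3% called, beside 30.3% of all genes tested). The median log2 fold change was -0.053. *Ndufb3*, a supernumerary subunit of the distal part of the arm, was at 44.7, 46.7 and 64.1 CPM in WT and 45.6, 42.3 and 39.4 CPM in KO. WT c alone stood far above the other 5 libraries, and WT a and WT b were close to KO a. The log2 fold change of -0.28 ± 0.087 (adjusted p = 0.0169) became -0.11 without WT c (adjusted p = 0.165).

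*Ndufb9*, which belongs to the same LYR-motif family as *Ndufa6*, was at 204, 214 and 251 CPM in WT and 203, 192 and 189 CPM in KO. WT a and KO a were nearly level, and the groups did not overlap. The log2 fold change was -0.19 ± 0.050 (adjusted p = 0.00385), and -0.11 without WT c (adjusted p = 0.00748). A predicted gene on the same strand overlaps 28.6% of its exonic bases.

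*Ndufb7* and *Ndufb10*, both held in shape by disulfide bonds on the side of the intermembrane space, showed smaller changes. *Ndufb7* was at 109, 111 and 115 CPM in WT and 101, 103 and 101 CPM in KO, without overlap (log2 fold change -0.13 ± 0.040, adjusted p = 0.0145). *Ndufb10* was at 166, 170 and 195 CPM in WT and 166, 161 and 159 CPM in KO, again with WT c apart (log2 fold change -0.13 ± 0.045, adjusted p = 0.0321). Without WT c, *Ndufb10* no longer passed the threshold (-0.056, adjusted p = 0.198), whereas *Ndufb7* did (-0.11, adjusted p = 0.0254).

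*Ndufc2*, of the part of the membrane arm near the junction with the matrix arm, was the 1 member higher in KO. Its level was 96.4, 103 and 98.0 CPM in WT and 105, 110 and 106 CPM in KO. Each KO library lay above each WT library by a narrow margin. With a log2 fold change of 0.11 ± 0.041 it just passed the threshold (adjusted p = 0.0459), and its adjusted p was 0.0516 without WT c. DESeq2 did not call it, and called no member higher.

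Of the other genes of the membrane arm, *Ndufa1* (-0.14), *Ndufa13* (-0.12), *Ndufb11* (-0.078) and *Ndufa10* (-0.069) had the largest log2 fold changes below zero. *Ndufa8* (-0.037), *Ndufb8* (-0.034), *Ndufb6* (-0.029), *Ndufc1* (-0.024) and *Ndufb2* (-0.012) were closer to it. *Ndufa3* (0.0037), *Ndufa11* (0.030) and *Ndufb5* (0.052) were above it. None of these 12 passed the threshold. *Ndufa10*, which has the fold of a nucleoside kinase, passed it only when WT c was left out (log2 fold change -0.090, adjusted p = 0.00889). *Ndufa13* passed it in 5 of the 20 other settings, and *Ndufa1* only when WT b was left out (adjusted p = 0.0485).

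*Ndufa1* and *Ndufb11* are the members on the X chromosome, and both encode small subunits of the membrane arm. *Ndufa1* was at 60.6, 57.7 and 81.1 CPM in WT and 62.9, 63.2 and 53.7 CPM in KO (adjusted p = 0.203). WT c was the highest and KO c the lowest, and the other 4 libraries lay close together. Without WT c the log2 fold change of *Ndufa1* was 0.018. *Ndufb11* was at 130, 136 and 137 CPM in WT and 126, 132 and 124 CPM in KO (adjusted p = 0.131). The groups overlapped for both genes. With the genes on X and Y left out of the fit, 10 of the 42 autosomal members were lower and 1 was higher, and *Ndufs8* then passed the threshold (adjusted p = 0.0470). In that fit 30.6% of all genes were called.

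Library WT c weighed on many of these values. It was the highest of the 6 libraries in 8 of the 9 members lower in KO, *Ndufv1* being the exception. It was above both other WT libraries in 26 of 44 members, against 37.5% of all genes tested. Without it, edgeR called 8 members lower and none higher (1 was higher at an unadjusted p under 0.05), while 31.3% of all genes were called, and the member median was -0.035. *Ndufb3*, *Ndufb10* and *Ndufc2* were the calls lost, and *Ndufa10* was gained.

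The excess in WT c ran with the length of the transcript. Relative to the mean of WT a and WT b on the log2 scale, the median over the 24 members with transcripts under 1 kb was 0.092 higher in WT c, against 0.062 for all 1036 genes of that class. The 16 members of 1 to 2 kb gave 0.037 (0.024 over all genes), and the 4 longer members gave -0.044 (-0.0077 over all genes). The change between the genotypes ran with length too. Its median log2 value over all genes was -0.023 under 1 kb and 0.0091 over 2 kb, and over the members -0.057 and 0.0030. With a length offset in the fit, 9 members were lower and 1 was higher, and the median was -0.018. In that fit 31.2% of all genes were called, and their median was -0.0031.

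**Figure D3:**
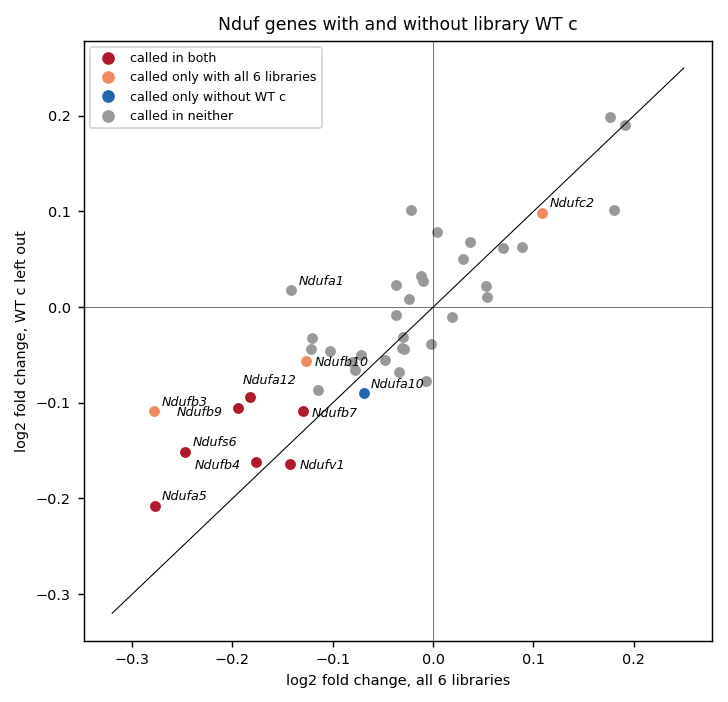
Log2 fold change of 43 of the 44 members with all 6 libraries (horizontal axis) and with WT c left out (vertical axis), with the line of equal values. Several points on the left, *Ndufb3* and *Ndufa1* among them, lie well above the line, so their values were nearer to zero or above it without WT c, while *Ndufv1* and *Ndufb4* lie near the line.

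The 7 assembly factors had a median log2 fold change of 0.089, and none passed the threshold in edgeR's quasi-likelihood test. At an unadjusted p under 0.05 there was 1, *Ndufaf5*, and none by DESeq2. *Ndufaf5*, which hydroxylates an arginine of the core subunit Ndufs7, was at 18.7, 18.9 and 15.6 CPM in WT and 19.7, 21.0 and 20.1 CPM in KO. The groups did not overlap, and WT c was the lowest (log2 fold change 0.18 ± 0.082, adjusted p = 0.0970). When library totals alone set the scale, *Ndufaf5* and *Ndufaf4* passed the threshold.

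The other assembly factors did not pass the threshold either. *Ndufaf6* (log2 fold change 0.19) was at 15.5 CPM in KO c and at 11.1 to 11.9 CPM in the other 5 libraries, and without KO c its log2 fold change was 0.036. *Ndufaf3* (0.18) and *Ndufaf4* (0.089), which act together on the ubiquinone-binding part of the matrix arm, were above zero. *Ndufaf7* (-0.010), a methyltransferase, *Ndufaf1* (-0.022), an early factor of the membrane arm, and *Ndufaf2* (-0.12) were below it. *Ndufaf2* was covered by 128 to 174 counts per library, and its interval ran from -0.37 to 0.13.

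*Ndufa4* and *Ndufa4l2* showed no difference that passed the threshold. *Ndufa4*, whose product is now assigned to cytochrome c oxidase, was at 215, 208 and 181 CPM in WT and 204, 204 and 192 CPM in KO (log2 fold change -0.0074 ± 0.045). WT c was the lowest library here, the reverse of its place in most lowered members. *Ndufa4l2*, a paralog known as a hypoxia-induced gene, was at 17.0, 18.0 and 17.6 CPM in WT and 15.3, 18.2 and 18.2 CPM in KO (-0.030 ± 0.085). *Ndufab1*, the mitochondrial acyl carrier protein, was at 149, 151 and 161 CPM in WT and 160, 160 and 152 CPM in KO (0.037 ± 0.038). The groups overlapped for all 3 genes.

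To compare the members with each other, levels in WT were divided by the length of the transcript. *Ndufb8*, of the membrane arm, was the highest with 395 ± 15.5 CPM per kb (SD, n = 3), followed by *Ndufa4* (329 ± 29.3) and *Ndufb9* (317 ± 35.2). The libraries of *Ndufa4* and *Ndufb9* overlapped, and those of *Ndufb8* lay above both. *Ndufb8* itself was at 275, 274 and 256 CPM in WT and 262, 274 and 252 CPM in KO. The 7 assembly factors held ranks 37 and 39 to 44 of the 44, with *Ndufa4l2* between them, and *Ndufaf3* was the lowest with 8.64 ± 0.44 CPM per kb. Before division by length, *Ndufaf3* was at 12.1, 13.1 and 13.3 CPM in WT and 12.8, 17.0 and 14.0 CPM in KO, with KO b apart. *Ndufs4* (rank 35) and *Ndufab1* (rank 36), the lowest subunits, were next above them, and *Ndufab1* stood at 44.1 ± 1.83 CPM per kb. *Ndufaf1*, the highest assembly factor, was at 22.8 ± 3.69 CPM per kb. The lengths are those of 1 annotated transcript per gene, and a gene that mostly uses another transcript would move in this order.

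**Figure D4:**
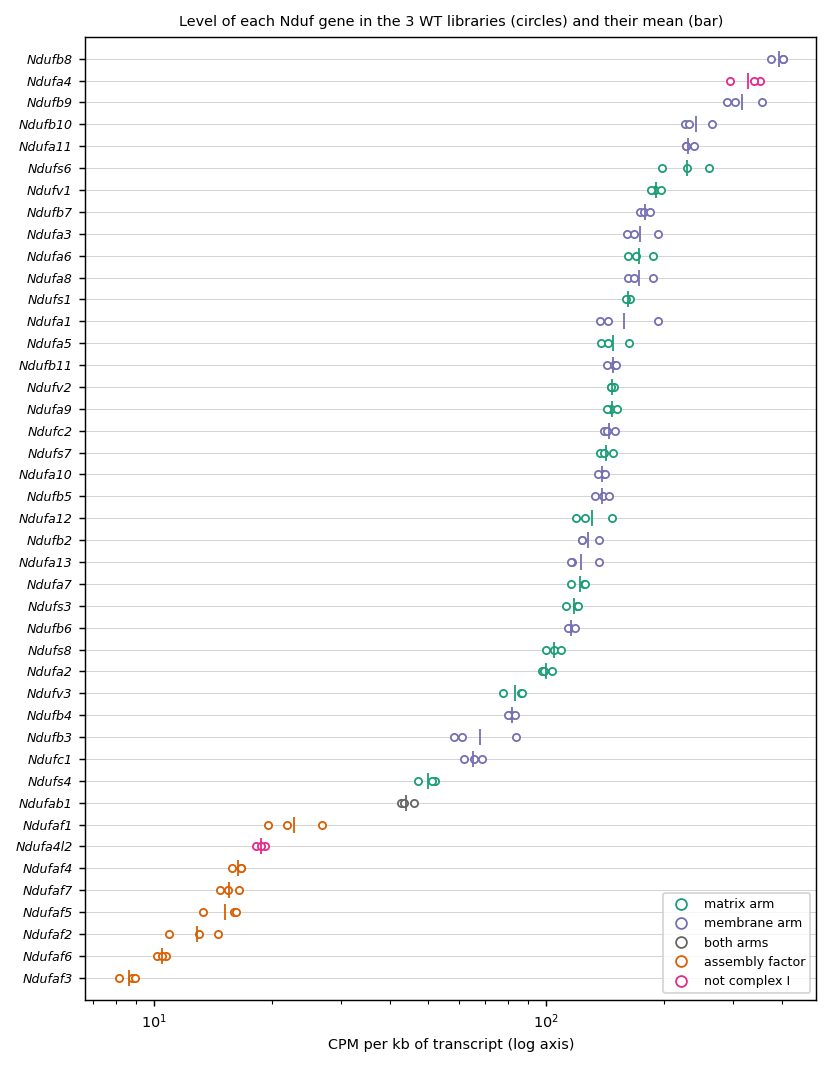
Level of 43 of the 44 members in the 3 WT libraries (circles) and their mean (bar), in CPM per kb of transcript on a log axis, coloured by place in the complex. The subunits lie above the 7 assembly factors and *Ndufa4l2*, which fill the 8 lowest rows.

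Complex I was set beside the other respiratory complexes, each taken as a list of nuclear genes. Of the 35 complex I subunits, 9 were lower and 1 was higher (median log2 fold change -0.048). In complex II, succinate dehydrogenase, 3 of 4 were lower (-0.084), namely *Sdhb* (-0.15), *Sdhc* (-0.099) and *Sdha* (-0.070). In complex III, 1 of 9 was lower (-0.058), *Uqcrh* (-0.13).

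In complex IV, cytochrome c oxidase, 8 of 16 were lower and 1 was higher (-0.11). The largest falls were those of *Cox8b* (-0.27), *Cox6a2* (-0.26) and *Cox7a1* (-0.23), the isoforms typical of heart and skeletal muscle, and *Cox5a* was higher (0.21). In complex V, the ATP synthase, 9 of 17 were lower (-0.083), with the largest falls in *Atp5h* (-0.24), *Atp5o* (-0.19) and *Atp5md* (-0.15). Complexes II to V together had 21 lower and 1 higher of 46, or 47.8%, beside 30.3% of all genes tested. Their median was -0.085. WT c was the highest library in 28 of these 46. Without WT c, 22 were lower and 1 higher, with a median of -0.072, while 31.3% of all genes were called. Whether complex I differs from the other complexes in its share of lowered genes was not tested.

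**Figure D5:**
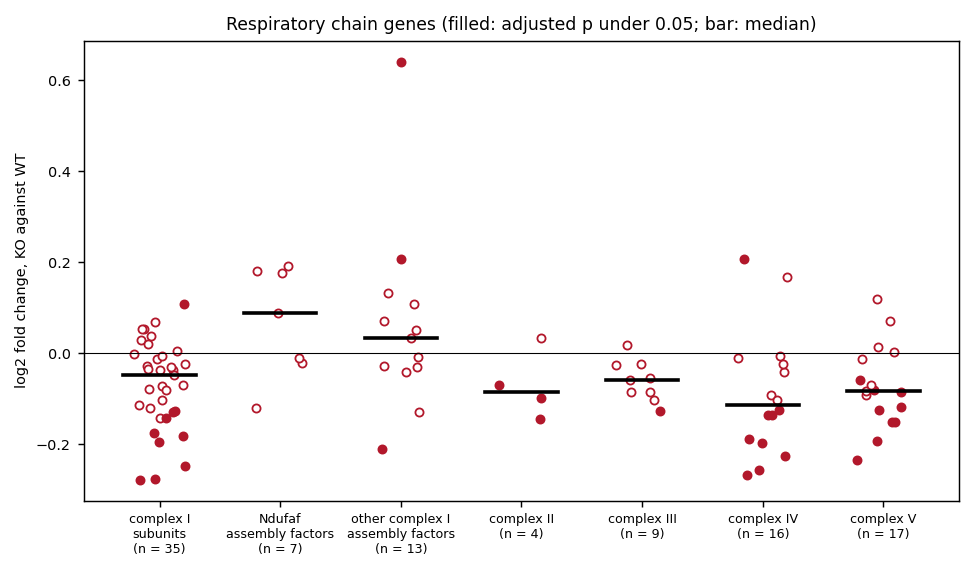
Log2 fold change, KO against WT, of each gene of complex I and of the other complexes, with the median as a bar and filled circles for an adjusted p under 0.05. The medians of complexes I to V lie below zero, the lowest in complex IV (-0.11), and those of both groups of complex I assembly factors lie above it.

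Of 13 further assembly factors of complex I, which lack the Nduf name, 2 were higher and 1 was lower in KO, with a median of 0.034. The share called was 23.1%, beside 30.3% of all genes tested. *Tmem126b*, which works with *Ndufaf1* in an early assembly complex of the membrane arm, rose from 7.04 ± 0.60 CPM in WT to 11.0 ± 0.79 CPM in KO (SD, n = 3 each). Its log2 fold change was 0.64 ± 0.11 (adjusted p = 7.44e-05), larger than that of any Nduf gene, and it passed the threshold in all 20 other settings, with values from 0.58 to 0.70. Its partners *Ndufaf1* (-0.022), *Acad9* (-0.042) and *Ecsit* (0.13) did not pass the threshold. *Tmem186*, another factor of the same complex, was higher by 0.21 (adjusted p = 0.0495), and *Foxred1* was lower by a log2 fold change of -0.21 (adjusted p = 0.00197). *Tmem186* passed the threshold in 11 of the 20 other settings and *Foxred1* in all of them.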

How the data were processed

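Total RNA of E18.5 hearts was depleted of ribosomal RNA with KAPA RiboErase and made into libraries with KAPA HyperPrep. The submitters' processing notes name cutadapt 1.18, HISAT2, StringTie and mm10, while the counting program and its strand setting are not given in the sources used here, so reads of a gene and an antisense partner cannot be told apart. The authors deposited a table of raw counts with a row per gene and a column per library. Columns of their own edgeR test (log2 fold change, mean log2 CPM, p and false discovery rate) stand beside the counts and were not used.

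Counts were tested in R 4.3.3 with edgeR 4.0.16 (filterByExpr, TMM, quasi-likelihood test, genotype as the only term), and p was adjusted by Benjamini-Hochberg over the 13804 of 13809 genes that passed the filter. The typical biological coefficient of variation was 3.42%. With 15567624 to 19875546 counts per library, 3 counts correspond to 0.151 to 0.193 CPM, and members had 128 to 8930 counts per library. The study describes the 3 libraries of each genotype as biological replicates. No pair of libraries agreed within sampling noise, but most came close. The mean chi-square per gene, which is larger where counts differ more, was 1.56 between WT a and WT b. It was 1.62 to 1.88 between KO libraries, and 3.23 and 3.74 between WT c and the other WT libraries. Whether this spread is that between embryos was not tested. Transcript lengths are from GENCODE on GRCm38, and promoter windows are from RefSeq on GRCm38.p6.

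The values of 1 member are not reported here, though it stays in the counts and medians. Values per library are otherwise given for the core subunits, up to 6 called members with the largest change in each direction, members on X, *Ndufa4*, *Ndufa4l2* and the highest and lowest members. Those of *Ndufb7*, *Ndufb10*, *Ndufaf5* and *Ndufab1* were added after their values were seen. Of the other complexes, up to 3 called genes in each direction are named. The members and lists were chosen with earlier results of these data known. Alternatives were other scalings and tests (DESeq2 1.42.0, limma 3.58.1 voom), filters, length and GC offsets, X and Y genes left out, WT a and WT b summed, and each library left out in turn. The quasi-likelihood test was also tried on simulated counts drawn from its own fitted means and spread. Such counts cannot bear on WT c, on sex or on the kind of replicates. Plots were made with matplotlib 3.10.9 in Python 3.11.15.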

Additional observations from a re-analysis of the deposited data

How the results depend on the processing

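The 9 lower and 1 higher members became 4 and 0 with DESeq2, which called *Ndufa5*, *Ndufb4*, *Ndufb7* and *Ndufv1* (at an unadjusted p under 0.05 it gave 7 lower and 1 higher), and 7 and 3 with library totals alone. With WT a and WT b summed as 1 library there were 11 lower and 0 higher, where edgeR's unadjusted counts were 15 and 2. With each library left out in turn, 4 to 13 members were lower and 0 to 1 higher. Of all genes, DESeq2 called 21.7% and library totals alone gave 32.2%, beside the 30.3% given above. The fit with the summed library called 28% of all genes, and those with single libraries left out called 23.3% to 31.3%. The fewest lower members, 4, came without KO c (*Ndufa5*, *Ndufb4*, *Ndufb9*, *Ndufv1*), where edgeR's unadjusted counts were 9 lower and 2 higher. The higher call of *Ndufc2* was kept only without WT b among these. The member median was 0.015 with library totals alone, where the median over all genes was 0.049. The cause was not tested. The counts over all genes stayed within 1.5 times their value. No paired analysis was possible because column names show the genotype but no replicate. Of the 20 other settings, *Ndufb9* was called in 19, *Ndufs6* and *Ndufa12* in 18, *Ndufb7* in 17, *Ndufb3* in 16, and *Ndufb10* and *Ndufc2* in 13. *Ndufs8* and *Ndufa13*, which are not among the 9 lower members, were called in 7 and 5 of them. Depth limits the assembly factors *Ndufaf2*, *Ndufaf3* and *Ndufaf6* most, whose standard errors (0.12, 0.10 and 0.11) were the largest of the members.

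The members whose sign changed were all ones that had not passed the threshold. With library totals alone these were *Ndufa4* (0.040), *Ndufa4l2* (0.017), *Ndufa7* (0.046), *Ndufa8* (0.011), *Ndufaf1* (0.026), *Ndufaf7* (0.038), *Ndufb2* (0.035), *Ndufb6* (0.019), *Ndufb8* (0.013), *Ndufc1* (0.024), *Ndufs1* (0.017), *Ndufs7* (0.011). With upper-quartile factors they were *Ndufa4* (0.012), *Ndufa7* (0.017), *Ndufaf7* (0.0087), *Ndufb2* (0.0064). With the length offset they were *Ndufa4* (0.0019), *Ndufa7* (0.0054), with WT a and WT b summed *Ndufa3* (-0.026), *Ndufa4* (0.022), *Ndufa7* (0.0087), and with at least 10 counts in every library *Ndufa7* (0.00046). With single libraries left out, log2 fold changes ranged from -0.24 to 0.018 for *Ndufa1*, from -0.0099 to 0.056 for *Ndufa11*, from -0.048 to 0.078 for *Ndufa3*, from -0.077 to 0.040 for *Ndufa4*, from -0.077 to 0.053 for *Ndufa4l2*, from -0.038 to 0.025 for *Ndufa7*, from -0.080 to 0.023 for *Ndufa8*, from -0.12 to 0.10 for *Ndufaf1*, from -0.046 to 0.027 for *Ndufaf7*, from -0.044 to 0.039 for *Ndufb2*, from -0.046 to 0.0024 for *Ndufb6*, from -0.072 to 0.025 for *Ndufc1* and from -0.011 to 0.034 for *Ndufs3*.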

Other observations

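The gene listed under the older symbol *1810043H04Rik*, which RefSeq gives as a synonym of the complex I assembly factor *Ndufaf8*, fell outside the naming rule of the members. It was singled out after its values were seen. Its level was 5.68, 7.04 and 6.18 CPM in WT and 8.11, 7.96 and 8.27 CPM in KO. Every KO library lay above every WT library, and the log2 fold change was 0.36 ± 0.12 (SE, adjusted p = 0.0262 by edgeR's quasi-likelihood test), beyond that of any of the 7 assembly factors that carry the Nduf name. It was called in 15 of the 20 other settings, with values from 0.29 to 0.45, and its highest adjusted p among them was 0.114.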
